A study of Rattus norvegicus with 4 samples.

Results

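The genes described here encode the subunits of the receptors for glutamate and for gamma-aminobutyric acid (GABA), measured in the dorsal root ganglia (DRGs) of young rats given vehicle or cisplatin. They were taken by symbol from the protein-coding genes of the table, and comprised the AMPA (Gria), kainate (Grik), delta (Grid), NMDA (Grin) and metabotropic (Grm) glutamate receptors and the GABA-A (Gabr) and GABA-B (Gabbr) receptors. This gave 47 genes of 22293 protein-coding genes and of 33506 genes in all, 26 for glutamate and 21 for GABA. The rule used the symbols and not the measured values.

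Neonatal Wistar rats, labelled wild type, received either vehicle (phosphate-buffered saline) or cisplatin, a platinum chemotherapy drug, at 0.3 mg/kg. The injections were intraperitoneal, on postnatal days 14 and 16. Tissue collection is described as postnatal day 23 in one source and as 16 days after treatment in the labels. Each group held 2 libraries, each labelled as 1 rat and made by poly-A selection from several pooled lumbar ganglia, and the sex of these rats was not given in the sources used here. Replicates are numbered as in the labels, and p-values measure the spread between these 2 libraries a group only.

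A DRG holds the cell bodies of the sensory neurons that carry touch, temperature and pain to the spinal cord, wrapped by satellite glia, with axons ensheathed by Schwann cells. These neurons release glutamate at their central terminals. They also carry glutamate and GABA receptors there and on the cell body, and because sensory neurons keep a high internal chloride through the transporter NKCC1, opening GABA-A receptors depolarises them, which at central terminals produces presynaptic inhibition. Ionotropic receptors (AMPA, kainate, NMDA, GABA-A) are ion channels assembled from several subunits, and metabotropic glutamate and GABA-B receptors act through G proteins.

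The 4 libraries held between 21384801 and 25618417 counts. Levels in CPM are counts scaled to each library's protein-coding total after TMM, a correction for composition, and a floor of 3 counts corresponded to 0.118 to 0.152 CPM. Vehicle replicate 1 stood apart before any comparison, as 13 of 16 markers of central nervous system tissue were highest in it, and 9 of them were more than 5 times the next highest library. Their summed level was 192.67 CPM in vehicle replicate 1 and 38.15, 30.19 and 43.48 CPM in vehicle replicate 2 and cisplatin replicates 1 and 2. Olig2, a transcription factor of oligodendrocytes, which are absent from peripheral ganglia, had 56 counts in vehicle replicate 1 and 0 in the other 3 libraries, and Slc6a5, the glycine transporter of inhibitory spinal neurons, had 286, 2, 9 and 4 counts in the same order. The spinal motor neuron markers Mnx1 (0 counts in every library) and Chat (2, 0, 1 and 0 counts) were at or near 0. Many receptor values are therefore given with and without vehicle replicate 1, and the part of this tissue signal in them was not tested.

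**Figure D1:**
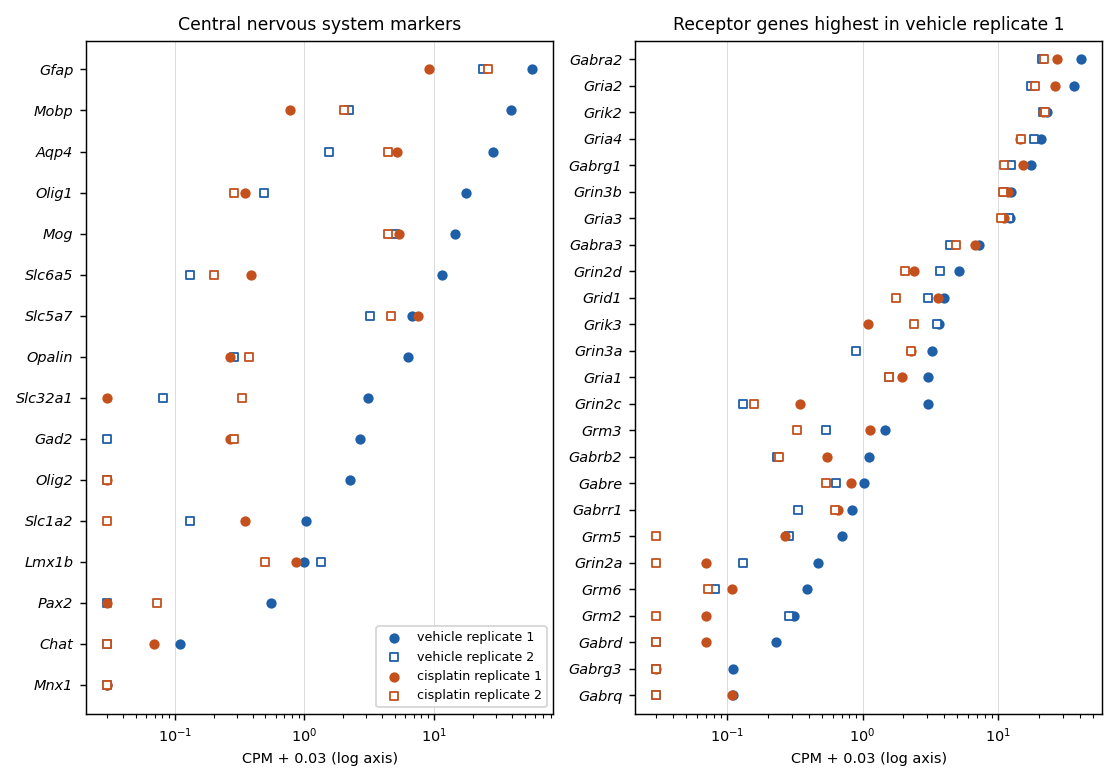
CPM plus 0.03 on a log axis in each library, for 16 markers of central nervous system tissue (left) and for receptor genes, 17 tested and 8 not, whose highest value was in vehicle replicate 1 (right). Filled symbols are replicate 1, open symbols replicate 2, blue vehicle and orange cisplatin; on the left the filled blue points of Olig1, Mobp and Slc6a5 lie far to the right of the other 3 libraries, and on the right that of Grin2c does.

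The libraries also differed by replicate number. All 18 sensory neuron markers were higher in replicate 1 than in replicate 2 of both groups, with summed levels of 18010, 13537, 23122 and 16202 CPM (vehicle replicates 1 and 2, then cisplatin replicates 1 and 2, the order used throughout). Markers of Schwann cells ran the other way, at 60728, 155987, 47768 and 136785 CPM for 8 markers summed. Of the 34 receptor genes with enough counts to be tested, 27 were lower in replicate 2 than in replicate 1 of both groups, against 34.2% of the 14719 genes tested. Together the receptor genes took 0.149, 0.112, 0.150 and 0.104% of protein-coding counts, so that the replicate 1 libraries of both groups lay above both replicate 2 libraries. In whole ganglia, fewer cells of a type and less RNA per cell cannot be told apart.

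The receptor genes ranged from undetected to abundant. Levels are compared between genes only as FPKM, which divides by gene length and library size. Of the 47 genes, 22 had a mean above 1 FPKM over the 4 libraries and 7 a mean above 10 FPKM. The GABA-B subunit gene Gabbr1 was the highest of all 47 in each of the 4 libraries, at 86.9, 92.1, 87.0 and 76.0 FPKM, and no other receptor gene overlapped its range. Below it were Gabbr2 with a mean of 24.0 FPKM, Grik1 with 21.8, Grin1 with 19.98, Grik5 with 17.9 and Gabra2 with 13.1. Each of these overlapped the next of them over the 4 libraries, so their order was not resolved, while the lowest library of Gabra2 (9.90 FPKM) stood just above the highest of Gabrg1 (9.89 FPKM).

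The filter on low counts removed 13 genes, which were not tested. These included the NMDA subunit genes Grin2a and Grin2c, the metabotropic genes Grm5, Grm2 and Grm6, and the GABA-A genes Gabra6, Gabrb1, Gabrg3, Gabrd, Gabrq, Gabrr2 and Gabrr3. Their totals over the 4 libraries ran from 0 to 89 counts. Gabra6, known for its expression in cerebellar granule cells, was the single receptor gene with 0 counts in every library, which allows up to 0.152 CPM in the shallowest.

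**Figure D2:**
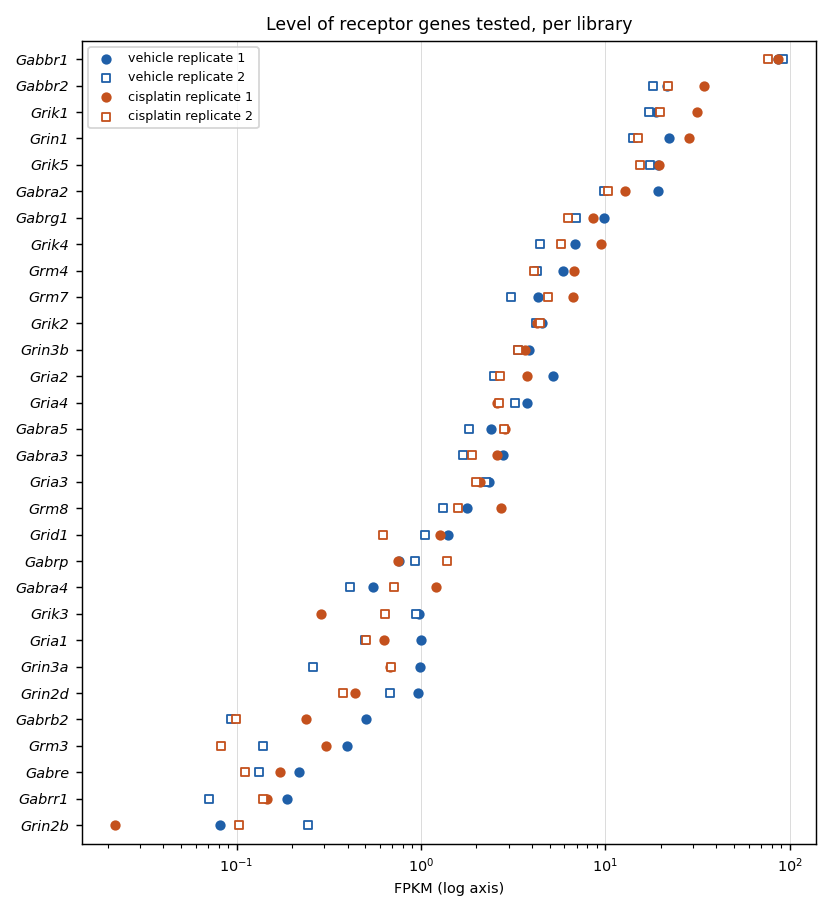
FPKM on a log axis for 30 of the 34 receptor genes tested, in each of the 4 libraries, ordered by mean; filled symbols are replicate 1, open symbols replicate 2. Gabbr1 is alone at the top at 76.0 to 92.1 FPKM, and the genes from Gabbr2 to Gabra2 form an overlapping band below it.

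The promoters of 3 receptor genes are shown for the contrast in level, namely Gabbr1 as the highest, Grin1 as the highest NMDA subunit gene and Gabra6 as the gene with no counts. Each is the 250 bases upstream of the RefSeq gene start on the gene's own strand, which is the reverse strand in all 3, in build GRCr8: chr20:1499237-1499486 for Gabbr1, chr3:28528755-28529004 for Grin1 and chr10:27327235-27327484 for Gabra6. Capitals mark CG dinucleotides.
Gabbr1: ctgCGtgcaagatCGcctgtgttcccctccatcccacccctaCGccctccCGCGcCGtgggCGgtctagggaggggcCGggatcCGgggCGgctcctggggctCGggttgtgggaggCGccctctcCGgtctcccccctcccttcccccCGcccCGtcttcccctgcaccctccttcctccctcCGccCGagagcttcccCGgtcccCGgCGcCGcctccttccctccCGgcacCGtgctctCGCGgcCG
Grin1: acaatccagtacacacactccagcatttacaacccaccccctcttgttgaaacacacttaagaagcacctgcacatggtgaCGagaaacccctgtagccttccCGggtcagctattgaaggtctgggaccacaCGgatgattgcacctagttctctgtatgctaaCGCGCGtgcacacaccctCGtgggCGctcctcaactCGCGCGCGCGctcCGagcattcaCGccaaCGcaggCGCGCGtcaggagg
Gabra6: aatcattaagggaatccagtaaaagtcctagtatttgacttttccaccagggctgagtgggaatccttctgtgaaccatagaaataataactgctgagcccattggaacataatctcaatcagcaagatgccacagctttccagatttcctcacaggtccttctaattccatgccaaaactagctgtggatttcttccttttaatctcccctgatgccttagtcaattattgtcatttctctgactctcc
The Gabbr1 promoter held 26 CG dinucleotides, a number reached by 8.6% of the 33469 rat promoters of this length, and 4 matches to the GC box GGGCGG on either strand. The Grin1 promoter held 19 CG dinucleotides (18.4% of promoters had at least as many) and no GC box, and that of Gabra6 held none, like 7.8% of promoters. RefSeq promoters were matched for 30 of the 47 genes, and the median number of CG dinucleotides was 9.5 over the 20 of them that were tested, 6.5 over the 10 that were not and 5.0 over all promoters. The GC box was found in 40.0% of the tested and 30.0% of the untested receptor promoters and in 30.5% of all promoters.

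The comparison of cisplatin-treated with age-matched vehicle-treated rats asked which receptor genes differ after early-life treatment. No receptor gene passed the edgeR quasi-likelihood test at an adjusted p under 0.05 with a fold change of at least 1.5, and of all 14719 genes 1 did (0.00679%). DESeq2 also called 0 of the receptor genes, against 140 of all genes (0.951%). At an unadjusted p under 0.05 with the same fold, edgeR gave 1 receptor gene, the NMDA subunit gene Grin2d, which was lower after cisplatin, where 7.95% of all genes passed (2.77% higher and 5.18% lower). That count was 0, 3, 0 and 6 when vehicle replicate 1, vehicle replicate 2, cisplatin replicate 1 or cisplatin replicate 2 was left out, beside 4.76, 6.9, 4.12 and 12.7% of all genes. The log2 fold change (cisplatin over vehicle) was above 0 for 14 of the 34 genes and below 0 for 20, with a median of -0.06, beside a median of -0.01 over all genes tested, of which 49.1% were above 0.

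The median and the number of genes above 0 varied with the library left out. Without vehicle replicate 1 the median of the receptor genes was 0.31 and 27 of 34 were above 0, while the median of all genes was 0.01. Of these genes, 13 went from below to above 0, 14 were above 0 in both fits, and 7 were below 0 in both (Gabbr1, Gria3, Gria4, Grid1, Grik3, Grin2b and Grin2d). No receptor gene had an adjusted p below 0.825 in edgeR without that library. Of the 34 genes, 19 (55.9%) had their highest CPM in vehicle replicate 1, against 21.9% of all genes, and 12 in cisplatin replicate 1. For the sensory neuron markers the median was 0.40 with all libraries (17 of 18 above 0) and 0.63 without vehicle replicate 1 (18 of 18), and their part in the receptor values was not tested. The fit without vehicle replicate 1 sets vehicle replicate 2 alone against both cisplatin replicates, so it is not balanced by replicate number. Without vehicle replicate 2 the receptor median was -0.26, with 9 genes above 0. It was -0.25 without cisplatin replicate 1 (12 above 0) and 0.03 without cisplatin replicate 2 (19 above 0).

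**Figure D3:**
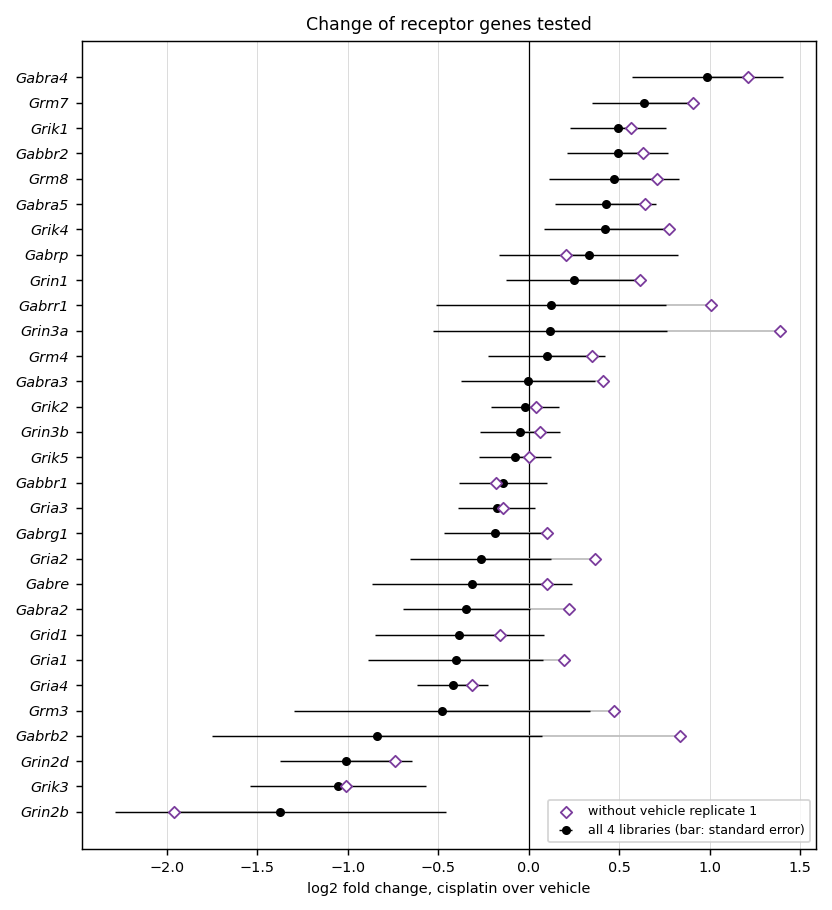
Log2 fold change, cisplatin over vehicle, of 30 of the 34 receptor genes tested, from edgeR. Black points with bars are the estimate and its standard error over all 4 libraries, and open diamonds, joined by a grey line, the estimate without vehicle replicate 1; 18 black points lie below 0, while 23 diamonds lie above it.

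In 9 of the 34 genes both libraries of a group lay on one side of both libraries of the other, against 41.8% of all genes. The cisplatin-treated libraries were the higher in 5, Grik1, Grm7, Gabra4, Gabra5 and Gabbr2 (20.6% of all genes), and the lower in 4, Gria3, Gria4, Grik3 and Grin2d (21.2%). The share of 26.5% among receptor genes was below that background. With 1 library left out the groups separate more easily, and without vehicle replicate 1 they did so in 23 genes, 17 higher and 6 lower, against 74.7% of all genes (35.8% higher and 38.9% lower). The count was 24, 20 and 19 without vehicle replicate 2, cisplatin replicate 1 and cisplatin replicate 2, beside 66.7, 65.9 and 76.4% of all genes. With 2 libraries a group, the smallest p an exact two-sided permutation test can give is 0.333, so single genes were tested only in the fit across all genes.

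Among the ionotropic glutamate receptors, AMPA receptor genes encode the channels of fast excitation. Gria2, whose edited subunit makes the channel impermeable to calcium, was measured at 36.6, 17.6, 26.3 and 18.8 CPM, and its log2 fold change of -0.27 ± 0.39 (SE, n = 2 a group) did not pass the test (edgeR adjusted p = 0.843). Its highest value was in vehicle replicate 1, and without that library the log2 fold change was 0.37. Gria4, the other leading AMPA gene, was at 20.9, 18.3, 14.5 and 14.8 CPM, with both cisplatin-treated libraries below both vehicle-treated ones (log2 fold change -0.42 ± 0.20, SE, edgeR adjusted p = 0.551) and a log2 fold change of -0.31 without vehicle replicate 1. Gria3 was likewise lower without overlap but by little, at 12.3, 11.9, 10.9 and 10.5 CPM. Gria1 was the lowest AMPA gene, with a mean of 0.658 FPKM. The median log2 fold change of the 4 AMPA genes was -0.34 with all libraries and 0.02 without vehicle replicate 1.

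Kainate receptor genes were the most abundant ionotropic glutamate receptor genes, with 44.2 to 64.9 FPKM summed per library against 18.7 to 33.2 for NMDA and 7.85 to 12.3 for AMPA. Grik1, which encodes the GluK1 subunit known from small-diameter sensory neurons, was at 59.7, 54.9, 99.3 and 62.3 CPM. Both cisplatin-treated libraries lay above both vehicle-treated ones, although cisplatin replicate 2 was close to vehicle replicate 1, and the log2 fold change of 0.50 ± 0.27 (SE) did not pass the test (edgeR adjusted p = 0.579). It was 0.57 without vehicle replicate 1 and 0.13 without cisplatin replicate 1. Grik5, whose subunit forms channels only together with GluK1 to GluK3, was at 74.1, 67.5, 75.1 and 59.2 CPM, and here the groups overlapped. Grik3 was much lower, at 3.64, 3.51, 1.06 and 2.38 CPM (91, 69, 27 and 56 counts). Its groups did not overlap, and its log2 fold change of -1.05 ± 0.49 (SE, edgeR adjusted p = 0.549) was -1.01 without vehicle replicate 1. Without cisplatin replicate 1 it was -0.58, and without cisplatin replicate 2 it was -1.74. Grik2 and Grik4 overlapped between the groups.

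The share of each gene in its class, taken from FPKM in each library, removes what is common to the class. Grik1 made up 37.4 and 39.0% of kainate receptor FPKM in vehicle-treated rats (38.2 ± 1.11%, SD, n = 2) and 48.4 and 42.9% in cisplatin-treated rats (45.7 ± 3.86%), and Grik5 38.2 and 39.4% against 30.1 and 33.6%. Grik1 thus took the larger share of the pair in both cisplatin-treated libraries and the smaller in both vehicle-treated ones. Grik3 took 1.94 and 2.12% against 0.440 and 1.40%. These shares are descriptions without a test, since the members of a class sum to 100%.

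NMDA receptors need the GluN1 subunit encoded by Grin1, joined by GluN2 subunits (Grin2a to Grin2d), which bind glutamate, or by glycine-binding GluN3 subunits (Grin3a, Grin3b). Grin1 was at 118, 75.8, 150 and 80.1 CPM, where the replicate 1 library of each group was the higher and the groups overlapped (log2 fold change 0.25 ± 0.38, SE, edgeR adjusted p = 0.849, and 0.61 without vehicle replicate 1). Grin2d, the single gene under an unadjusted p of 0.05, was at 5.15, 3.71, 2.36 and 2.04 CPM, from 129, 73, 60 and 48 counts. Both cisplatin-treated libraries lay below both vehicle-treated ones, and the vehicle-treated library with the central nervous system signal was the highest. Its log2 fold change was -1.01 ± 0.36 (SE, edgeR adjusted p = 0.522), and -0.74 without vehicle replicate 1. Grin2b, with 11, 26, 3 and 13 counts, overlapped between the groups.

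Per length, the GluN2 genes were scarce beside Grin1. Their summed FPKM was 0.0799 and 0.0687 of that of Grin1 in vehicle-treated rats and 0.0189 and 0.0338 in cisplatin-treated rats, so the ratio was lower in both cisplatin-treated libraries. Grin2d had the highest FPKM of the GluN2 genes in every library, so the ratio is not independent of its values. No background was computed for such ratios. Grin2c contributed to the ratio in vehicle replicate 1, where it had 76 counts against 2, 8 and 3 in the other libraries, 9.64 times the CPM of the next highest. Grin2c was singled out after its values were seen. Of the 12 untested receptor genes with any count, 9 were highest in vehicle replicate 1. Grin3b was at 12.5, 11.0, 11.9 and 10.8 CPM, with groups that overlapped. In the annotation of the table Grin3b lies inside the span of Palm on the opposite strand, which had 19614 counts against 1086 for Grin3b, and since the use of strand in counting is not given in the sources used here, its level is uncertain.

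Grid1 encodes a delta receptor, a class whose products bind cerebellins at synapses rather than opening to glutamate. It was at 3.95, 2.997, 3.58 and 1.74 CPM, with groups that overlapped.

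Metabotropic glutamate receptors fall into group I, which raises intracellular calcium, and groups II and III, which lower cyclic AMP and act mostly as presynaptic brakes. Group III genes made up nearly the whole class, with 8.66 to 16.3 FPKM summed per library against at most 0.458 for group II. Grm7 was at 11.1, 7.98, 17.2 and 12.5 CPM, which is 9.52 ± 2.18 CPM (SD, n = 2) under vehicle and 14.8 ± 3.38 CPM under cisplatin. Both cisplatin-treated libraries lay above both vehicle-treated ones, and the log2 fold change of 0.64 ± 0.29 (SE) did not pass the test (edgeR adjusted p = 0.542), being 0.91 without vehicle replicate 1 and 0.39 without cisplatin replicate 1. Grm4 was at 15.7, 11.5, 18.2 and 10.9 CPM and overlapped between groups. In the annotation Grm4 shares its whole span with Ppil1 on the same strand (1317 counts against 1337), so reads of the 2 genes may have been divided between them in a way not known here. Grm8 was at 7.31, 5.44, 11.1 and 6.55 CPM and Grm3, the group II gene, had 36, 10, 28 and 7 counts. Within the class, Grm7 took 33.6 and 34.5% of FPKM in vehicle-treated rats and 40.4 and 45.7% in cisplatin-treated rats, and Grm4 45.6 and 47.5% against 40.8 and 38.4%.

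**Figure D4:**
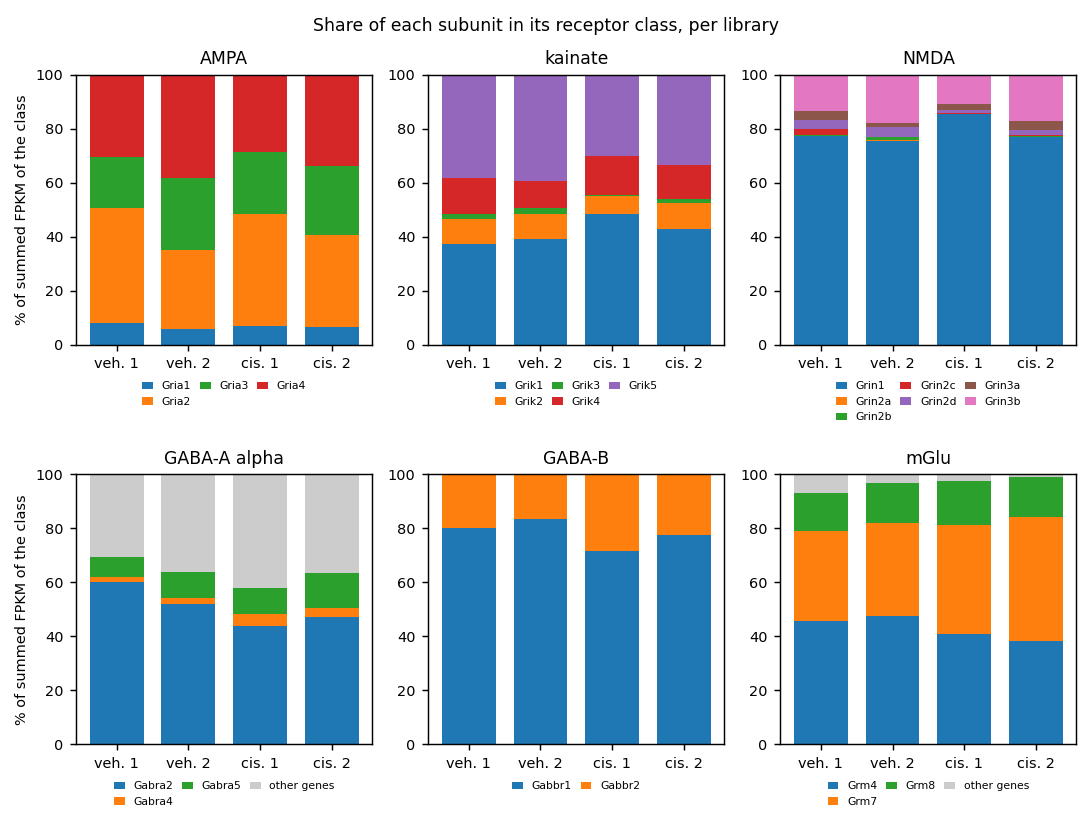
Share (%) of each gene in the summed FPKM of its receptor class, in each of the 4 libraries, for 6 classes; grey combines genes not shown one by one, veh. is vehicle and cis. cisplatin, with the replicate number. The Grik1, Gabbr2, Gabra4 and Grm7 segments are larger in both cisplatin-treated than in both vehicle-treated libraries, while the Gabra2 segment is smaller, at 44.0 and 47.2% against 60.2 and 51.9%.

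GABA-A receptors are chloride channels built mostly of alpha, beta and gamma subunits. Gabra2, the most abundant alpha gene, was at 41.0, 21.1, 27.0 and 21.97 CPM. It was highest in vehicle replicate 1, its groups overlapped, and its log2 fold change of -0.35 ± 0.35 (SE, edgeR adjusted p = 0.759) was 0.22 without that library. Of the 12 GABA-A genes tested, 5 were above 0 with all libraries (median -0.09) and 12 without vehicle replicate 1 (median 0.34), although without it too each adjusted p was 0.825 or more. Gabrg1, of a gamma subunit, was at 17.5, 12.4, 15.3 and 11.1 CPM. Gabrb2, with 27, 4, 13 and 5 counts, was again highest in vehicle replicate 1.

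Among the alpha genes, 2 lay higher in cisplatin-treated rats without overlap. Gabra4, which with the delta subunit forms extrasynaptic receptors in brain, was at 2.48, 1.88, 5.43 and 3.23 CPM, from 62, 37, 138 and 76 counts. Its log2 fold change was 0.99 ± 0.42 (SE, edgeR adjusted p = 0.533), the highest of the 34 genes. It was 1.21 without vehicle replicate 1 and 0.57 without cisplatin replicate 1. Gabra5, of the alpha subunit known from tonic inhibition, was at 6.55, 5.03, 7.83 and 7.74 CPM (log2 fold change 0.42 ± 0.28, SE, edgeR adjusted p = 0.635, and 0.64 without vehicle replicate 1). Both cisplatin-treated libraries stood above both vehicle-treated ones in each gene, and neither passed the test. The alpha class was less dominated by Gabra2 in cisplatin-treated rats, where it took 44.0 and 47.2% against 60.2 and 51.9%. Gabra4 took 1.70 and 2.16% in vehicle-treated and 4.15 and 3.25% in cisplatin-treated rats.

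Each gene of the rarer classes named here averaged below 1 FPKM. Gabrp, of the pi subunit, had 27, 26, 27 and 46 counts, Gabre, of the epsilon subunit, 25, 12, 20 and 12, and Gabrr1, of a rho subunit known from retina, 20, 6, 16 and 14. None of these 3 separated the groups.

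GABA-B receptors are obligate pairs in which the Gabbr1 product binds GABA and the Gabbr2 product couples to the G protein. Gabbr1 (ENSRNOG00000000774, chromosome 20, 1955359 to 1984863, reverse strand, Rnor_6.0) was at 597, 640, 599 and 523 CPM (log2 fold change -0.14 ± 0.24, SE, edgeR adjusted p = 0.871), with groups that overlapped. Gabbr2 (ENSRNOG00000008431, chromosome 5, 62276100 to 62621737, reverse strand) was at 121, 102, 192 and 122 CPM. Cisplatin replicate 1 was far above the other libraries and cisplatin replicate 2 just above vehicle replicate 1, so the groups did not overlap but were separated by little. The log2 fold change of 0.49 ± 0.28 (SE, edgeR adjusted p = 0.597) was 0.63 without vehicle replicate 1 and 0.13 without cisplatin replicate 1. Gabbr2 took 19.98 and 16.4% of the pair's FPKM in vehicle-treated rats (18.2 ± 2.53%, SD, n = 2) and 28.3 and 22.3% in cisplatin-treated rats (25.3 ± 4.25%). The FPKM of Gabbr1 was 4.005, 5.09, 2.53 and 3.49 times that of Gabbr2.

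Over the classes, the shares of 29 tested genes separated the groups in 13 cases, 7 with the larger share after cisplatin and 6 with the smaller, and overlapped in 16. By CPM, the groups did not overlap in 41.8% of all genes tested, and no such background was computed for shares. The count is therefore not read as a change in subunit make-up. In a class of 2 genes 1 share fixes the other, and in larger classes the shares are not independent.

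Genes that act with these receptors were counted from lists, and edgeR and DESeq2 called none in any list. The auxiliary subunits of AMPA and kainate receptors, which set their trafficking and gating, had 11 of 14 genes tested, 8 above and 3 below 0 (median 0.26, and 0.61 without vehicle replicate 1), and none reached an unadjusted p under 0.05. Cacng7, a TARP and the highest of them by mean FPKM, was at 79.3, 62.9, 102 and 79.1 CPM. Of 20 tested scaffold and trafficking genes, 8 were above and 12 below 0 (median -0.30, and 0.15 without vehicle replicate 1). An unadjusted p under 0.05 with the fold was reached by 2 of the 20, beside 7.95% of all genes tested. Shank3, a scaffold of glutamatergic synapses, was at 18.1, 13.2, 5.20 and 7.99 CPM, with cisplatin-treated below vehicle-treated libraries (log2 fold change -1.24 ± 0.32, SE, edgeR adjusted p = 0.522). Gabarap, which binds GABA-A gamma subunits and serves in autophagy, was at 144, 220, 287 and 317 CPM, with cisplatin-treated above vehicle-treated libraries (log2 fold change 0.73 ± 0.27, SE, edgeR adjusted p = 0.523). The highest of the list by mean FPKM, its relative Gabarapl1, was at 494, 432, 780 and 597 CPM.

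Of the genes for glutamate synthesis, release and uptake, 11 of 12 were tested, 5 above and 6 below 0 (median -0.04). Without vehicle replicate 1 the median was 0.36 and 7 of 11 were above 0, and with all libraries none reached the unadjusted threshold. Glul, the glutamine synthetase of satellite glia, was the highest by mean FPKM, at 243, 392, 205 and 360 CPM, higher in the replicate 2 library of each group. Most satellite glia markers ran the other way, as 6 of the 8 listed, a list that includes Glul, were lower in replicate 2 of both groups. The genes for GABA synthesis, release and uptake had 7 of 9 tested, 2 above and 5 below 0 (median -0.68, and -0.86 without vehicle replicate 1). Gad1, which makes GABA, had 126, 22, 7 and 17 counts (log2 fold change -2.63 ± 0.89, SE, edgeR adjusted p = 0.522) and Slc6a11, the GABA transporter GAT-3, had 212, 118, 54 and 92 (log2 fold change -1.26 ± 0.42, SE, edgeR adjusted p = 0.522). In both, cisplatin-treated lay below vehicle-treated libraries and vehicle replicate 1 was the highest, as it was for Gad2 (67, 0, 6 and 6 counts) and Slc32a1 (77, 1, 0 and 7 counts), which are among the markers of central nervous system tissue. Aldh9a1, the highest of the list by mean FPKM, was at 37.1, 50.3, 20.6 and 41.9 CPM.

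The genes that set the chloride gradient, and so the direction of GABA-A currents, had 5 of 7 tested, all 5 below 0 (median -0.40, and -0.68 without vehicle replicate 1), and none reached the unadjusted threshold. Slc12a2, which encodes the chloride importer NKCC1, was at 257, 337, 146 and 268 CPM (log2 fold change -0.52 ± 0.35, SE, edgeR adjusted p = 0.641). Cisplatin replicate 1 was the lowest, while cisplatin replicate 2 lay between the vehicle-treated libraries. The 8 Schwann cell markers were also all below 0 (median -0.36, and -0.84 without vehicle replicate 1). The 8 markers of fibroblasts and meninges summed to 5720, 7549, 2836 and 5474 CPM, again lowest in cisplatin replicate 1. One by one these 8 were divided, 4 above and 4 below 0 (median -0.05, and -0.34 without vehicle replicate 1). Their part in the chloride genes was not tested. Slc12a5, which encodes the exporter KCC2 of central neurons and was singled out after its values were seen, had 161, 8, 10 and 6 counts, so that outside vehicle replicate 1 it was nearly at the floor.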

How the data were processed

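Counts of reads per gene and FPKM values of 2 vehicle-treated and 2 cisplatin-treated libraries were used as deposited. The authors made the counts from poly-A selected, paired-end reads, which were cleared of adaptors and mapped to Ensembl Rnor_6.0 with HISAT2 2.0.5, and they assembled transcripts with StringTie 1.3.3b. The submitters' processing notes also name featureCounts 1.5.0-p3, DESeq2 1.20.0, edgeR 3.22.5 and GATK 4.1.4.1, and strand use is not given in the sources used here. The FPKM values deposited by the authors divide each count by exonic gene length and a constant per library.

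Samples were grouped by the labels. The 47 receptor genes and the gene lists were chosen with earlier results of these data known. Genes named by rule were those with an unadjusted p under 0.05, the leading pair of each class by FPKM, members called under an alternative, and members whose groups did not overlap. Other receptor genes, among them Grm8, Grin2b and Gria1, were named outside this rule. Protein-coding genes kept by filterByExpr (14719 of 22293) were fitted with edgeR 4.0.16 in R 4.3.3 (quasi-likelihood test, TMM, Benjamini-Hochberg adjustment, no covariates), and a gene was called at an adjusted p under 0.05 with a fold change of at least 1.5. Standard errors were taken from the log2 fold change and its F statistic. Normalization, filters, DESeq2 1.42.0, limma 3.58.1 on FPKM, gene length, a replicate term and the omission of each library were tried as alternatives. The non-overlap count without vehicle replicate 1 and the unadjusted count under each alternative were added after seeing the data. Fits were tested on simulated counts with less spread between libraries than these data and no difference by replicate number. That test therefore does not show how the fits perform here. Some of the receptor genes are counted in the totals but not reported here by name. Of the 47 genes, 20 overlap another gene of the table in span, and for 2 of them (Grin3b and Grm4) the overlapping gene held more than 10% of the receptor gene's own count. Promoters are from RefSeq, build GRCr8, whose coordinates were not mixed with those of Rnor_6.0. Counting limits cover counting error only.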

Additional observations from a re-analysis of the deposited data

How the results depend on the processing

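The number of receptor genes called was 0 in edgeR under DESeq2 size factors, library size alone, no filter on low counts, at least 10 counts in every library, gene length correction and each omission of 1 library, and was 0 in DESeq2 and in limma on log2(FPKM + 1) and log2(FPKM + 0.1). It was 1 at an unadjusted p under 0.05. The number at that unadjusted threshold, 1 with all libraries, was 2 with no filter (beside 7.71% of all genes), 2 with gene length correction (a lowess of log count on log exonic length per library; 6.11%), 0 under both limma settings (6.19 and 7.94%), and 0 to 6 with 1 library left out (4.12 to 12.7%). The number of genes whose groups did not overlap was 19 to 24 with 1 library left out (beside 65.9 to 76.4% of all genes), against 9 with all libraries (41.8%). The median log2 fold change of the receptor genes was -0.06, and ranged from -0.26 without vehicle replicate 2 to 0.31 without vehicle replicate 1. Under every setting, these omissions included, its shift from -0.06 stayed below the spread between libraries (within-group SD of the library medians, 0.38). That spread comes from the same 2 libraries a group, so omitting 1 of them can hardly exceed it. The comparison therefore does not show that the median is stable, and its sign turned without vehicle replicate 1. The median was -0.16 with no filter, -0.12 with library size alone and 0.03 with gene length correction. Direction depended on the omitted library for these genes, with the range of their log2 fold changes: Gria1 (-0.81 to 0.19), Gria2 (-0.70 to 0.37), Grik2 (-0.065 to 0.039), Grik5 (-0.25 to 0.084), Grid1 (-0.99 to 0.041), Grin1 (-0.27 to 0.63), Grin3a (-0.52 to 1.39), Grin3b (-0.14 to 0.062), Grm3 (-1.71 to 0.47), Grm4 (-0.31 to 0.42), Gabra2 (-0.74 to 0.22), Gabra3 (-0.32 to 0.41), Gabrb2 (-1.60 to 0.83), Gabrg1 (-0.43 to 0.10), Gabre (-0.66 to 0.10), Gabrp (-0.17 to 0.71) and Gabrr1 (-0.38 to 1.01). With gene length correction the sign also turned for Gabbr1 (0.14), Grik5 (0.027), Gria2 (0.031), Grik2 (0.17), Grin3b (0.024), Gria3 (0.024) and Gabra3 (0.0091), and with limma for Gabra3 (0.014 with 1 added and 0.027 with 0.1 added). The cause of these turns was not tested. The other 13 genes reported by name kept their direction whichever library was left out. An arm left with 1 library was assumed to vary like the other group. Low counts limited Grin2b, Grm3, Gabrb2, Gabre and Gabrr1, which had 49 to 81 counts over the 4 libraries and for which DESeq2 gave no adjusted p.

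The replicate numbers are shared between groups, but same-numbered libraries are different rats, so the samples share only a number. Across genes the replicate 2 minus replicate 1 differences of both groups correlated (Pearson r 0.444, Spearman rho 0.567, over genes, which are not independent replicates). With the replicate block in edgeR, 1 receptor gene was called, Grm7 (log2 fold change 0.64), beside 10.4% of all genes (1532, 494 of them higher and 1038 lower), and 4 receptor genes passed the unadjusted threshold, beside 14.2% of all genes. In the lists of associated genes, those called under the block included Gabarap (higher) and Shank3, Lhfpl4, Abat and Slc6a11 (lower). Gabbr2 had an adjusted p of 0.033 under the block but a fold change under 1.5. With the replicate block and gene length correction together, 1 receptor gene was called, Gabbr2 (log2 fold change 0.68), beside 5.16% of all genes, and 5 passed the unadjusted threshold, beside 11.4%. The median was 0.06 under that fit. The sign of Gabra3 was positive under the block (0.017), and with the length correction added so were those of Gabbr1 (0.14), Grik5 (0.019), Gria2 (0.091), Grik2 (0.17), Grin3b (0.025), Gria3 (0.024) and Gabra3 (0.032).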

Other observations

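Receptor genes are long. Of the 34 tested, 21 (61.8%) spanned more than 100 kb of genome, against 12.6% of all genes tested, and their median span was 145 kb against 21.2 kb. Over the table as a whole, the median log2 fold change was -0.21 for genes over 100 kb and 0.01 for shorter ones. The Spearman correlation of fold change across genes was -0.28 with span and -0.36 with exonic length, and the parts of span and exonic length were not separated. Among the receptor genes the medians were -0.18 and -0.05, and the correlation over the 34 genes was -0.03 with span and -0.02 with exonic length. These correlations are across genes of the same 4 libraries, which are not independent replicates.

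Several GABA-A receptor genes lie in clusters in Rnor_6.0. On chromosome 14, from 38643385 to 40049354, Gabra4 had a log2 fold change of 0.99, while those of its neighbours Gabra2 and Gabrg1 were -0.35 and -0.18, and none of the 3 passed the edgeR test. Without vehicle replicate 1 all 3 were above 0, at 1.21, 0.22 and 0.10.

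The 3 genes listed for RNA editing of receptor transcripts were all tested and all below 0 (median log2 fold change -0.35, and 0.13 without vehicle replicate 1). Editing itself was not measured. Adar was at 34.0, 19.5, 22.7 and 19.4 CPM and Adarb1 at 54.7, 35.6, 48.1 and 31.2 CPM. Both were highest in vehicle replicate 1, and Adar did not pass the test (edgeR adjusted p = 0.728).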
